A study of Homo sapiens with 31 samples.

Results

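RUNX1, RUNX2 and RUNX3 encode the DNA-binding subunits of the core-binding factors, and the binding of EVI1 and CTBP2 around these 3 genes was described from ChIP-seq peak lists. The genes are 3 of 20163 protein-coding genes with a window of the gene body and 50 kb on either side (hg19, GENCODE release 44). The 13 lists placed 810 of their 533140 peaks in the windows. Merged wherever peaks overlapped, these gave 187 elements of 131683 in the genome, of which 95 were at RUNX1, 30 at RUNX2 and 62 at RUNX3.

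A RUNX protein binds DNA through its Runt domain and is stabilised by the partner CBFB, which does not bind DNA itself. RUNX1 is required for the emergence of blood stem cells and is often mutated or rearranged in acute myeloid leukemia (AML). RUNX2 is the master regulator of bone formation, and RUNX3 acts in T cells and in the gut. Each gene is transcribed from a distal promoter, P1, and a proximal promoter, P2. EVI1 is a zinc finger protein that is activated by chromosome 3q26 rearrangements in AML, and CTBP2 is a corepressor without a DNA-binding domain of its own that binds the PLDLS motif of EVI1.

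The unmodified MUTZ3 cells, a human acute myelomonocytic leukemia line with a 3q26 rearrangement and no construct, had 1 EVI1 library and 1 CTBP2 library. MUTZ3 populations with the inducible construct pCW-4xPLDLS, a competitor for the site by which EVI1 holds CTBP2, had 2 CTBP2 and 2 EVI1 libraries without doxycycline (dox) and as many after 72 hours with it. MUTZ3 cells carrying retroviral 4× PLASS (p50MX-3xFLAG-3xNLS-4xPLASS-Zeo), the mutated control of the competitor, had 2 CTBP2 libraries. MOLM1, a second human leukemia line that the labels describe as chronic myeloid leukemia in blast crisis, had 1 CTBP2 library from untreated cells that carry an inducible short hairpin against EVI1. The labels give a double crosslink with disuccinimidyl glutarate for all but the unmodified CTBP2 library, which had a single crosslink, while a supplement of the study gives a single crosslink for the MOLM1 and 4× PLASS libraries too. The inducible cells were transduced populations, and the dox libraries shared 1 input and the untreated libraries another. The lists give no expression, so cell identity was not checked. They also give no read counts, so depth is unknown, a missing peak means a signal below the authors' threshold rather than absence, and since nothing says that replicates were separate cultures, p-values measure the spread between these libraries alone, which may be technical.

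The lists differed in length, from 6688 peaks (4× PLASS replicate 1) to 72214 (EVI1, untreated replicate 2). The untreated CTBP2 lists held 62232 and 56526 peaks and the dox CTBP2 lists 24588 and 23878. The EVI1 lists held 51389 and 72214 peaks without dox and 53806 and 47599 with it. Fold enrichment is the authors' ratio of pileup to background at the highest point of a peak, and it was compared between groups as deposited. Since the lists differ in length, the rank of a peak within its own list, as a number or as a percentage of the list, is given beside it for many of the elements.

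The elements that carried the highest fold enrichments are shown first, since the comparisons below turn on them. Each line gives hg19 sequence of the plus strand, the summit base in the list where the element ranked highest with 100 bases on either side. Letters in capitals match a motif on either strand, namely the RUNX motif TGTGGT, the ETS family motif GGAAG, the motif of the GATA family with letters GATAAG, or the motif of the second EVI1 zinc finger domain with letters GAAGATGAG.
RUNX1, intron between P1 and P2, chr21:36280801-36281001: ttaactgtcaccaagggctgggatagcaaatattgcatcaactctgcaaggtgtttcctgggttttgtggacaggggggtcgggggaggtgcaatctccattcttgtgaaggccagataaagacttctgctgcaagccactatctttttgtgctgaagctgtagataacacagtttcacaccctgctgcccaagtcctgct
RUNX1, intron downstream of P1, chr21:36398925-36399125: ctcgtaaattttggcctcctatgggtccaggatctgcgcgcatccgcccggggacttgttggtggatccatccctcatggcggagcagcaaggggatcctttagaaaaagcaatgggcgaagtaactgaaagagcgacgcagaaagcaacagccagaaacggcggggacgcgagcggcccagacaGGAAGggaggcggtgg
RUNX1, upstream of P1, chr21:36475406-36475606: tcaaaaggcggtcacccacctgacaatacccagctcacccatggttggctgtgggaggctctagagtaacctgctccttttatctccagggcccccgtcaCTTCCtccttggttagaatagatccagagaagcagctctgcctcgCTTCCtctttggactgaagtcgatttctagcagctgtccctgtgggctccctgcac
RUNX2, intron, chr6:45463644-45463844: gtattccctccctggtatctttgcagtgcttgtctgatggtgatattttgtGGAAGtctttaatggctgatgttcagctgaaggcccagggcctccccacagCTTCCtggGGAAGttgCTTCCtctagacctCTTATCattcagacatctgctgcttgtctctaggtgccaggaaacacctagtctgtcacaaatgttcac
RUNX3, 3′ flank, chr1:25199042-25199242: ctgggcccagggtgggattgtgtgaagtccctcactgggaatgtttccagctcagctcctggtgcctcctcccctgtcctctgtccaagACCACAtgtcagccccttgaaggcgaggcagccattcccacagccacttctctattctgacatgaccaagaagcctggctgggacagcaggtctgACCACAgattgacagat
The first RUNX1 window, labelled as between P1 and P2, held none of these exact letters, and other forms of the motifs were not searched. The RUNX2 window held the GATA family motif 1 time and the ETS family motif 4 times, and the RUNX3 window held the RUNX motif 2 times. The RUNX motif was present in the summit windows of 15 of 50 CTBP2 sites at the 3 genes (30.0%) and of 18.0% of CTBP2 sites in the genome. For EVI1 sites it was present at 21 of 60 (35.0%) and at 18.8% in the genome. The ETS family motif was present at 78.0% of the CTBP2 sites and 73.2% in the genome. The GATA family motif was present at 3 of 50 CTBP2 sites (6.0%, 4.77% in the genome) and 5 of 60 EVI1 sites (8.33%, 5.82% in the genome). The motif of the second EVI1 zinc finger domain was at none of the 50 CTBP2 and 60 EVI1 sites, against 0.399% and 0.643% in the genome. With genome shares this low, its absence from so few sites says little. These are descriptions of letters in a window, and the sites of a gene are not independent.

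RUNX1 and RUNX3 were among the protein-coding genes with the most peaks, and per length of window RUNX3 had the most of the 3. CTBP2 had 28 peaks at RUNX1 in untreated replicate 1 and 47 in replicate 2, 6 and 13 at RUNX2, and 49 and 28 at RUNX3. EVI1 had 35 and 40 untreated peaks at RUNX1, 12 and 10 at RUNX2, and 36 and 44 at RUNX3. By the mean number of untreated CTBP2 peaks RUNX3 stood 17th of 20163 genes, RUNX1 23rd and RUNX2 5389th. RUNX1 and RUNX3 did not differ beyond the spread of their replicates, with 37.5 ± 13.4 and 38.5 ± 14.8 CTBP2 peaks (SD, n = 2).

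The RUNX1 gene of GENCODE is 1216868 bp long because of 1 isolated distal transcript, so the numbers were also set against length. Untreated CTBP2 peaks per 100 kb of window were 23.2 at RUNX3, 2.85 at RUNX1 and 2.18 at RUNX2, and the median of all genes was 3.58. With the window drawn around the CCDS transcripts of RUNX1 alone, the value was 6.09. The median uses whole gene models for all genes, so 6.09 cannot be set against it. EVI1 gave 24.2 at RUNX3, 2.85 at RUNX1 and 2.52 at RUNX2, and the median of all genes was 3.56. In the order by CTBP2 and EVI1 peaks together, RUNX1 stood between PEBP4 and SNX29, and RUNX3 was tied with RIN3, ahead of ABR. RUNX2 had the same number as 202 other genes, so its neighbours were not named.

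**Figure D1:**
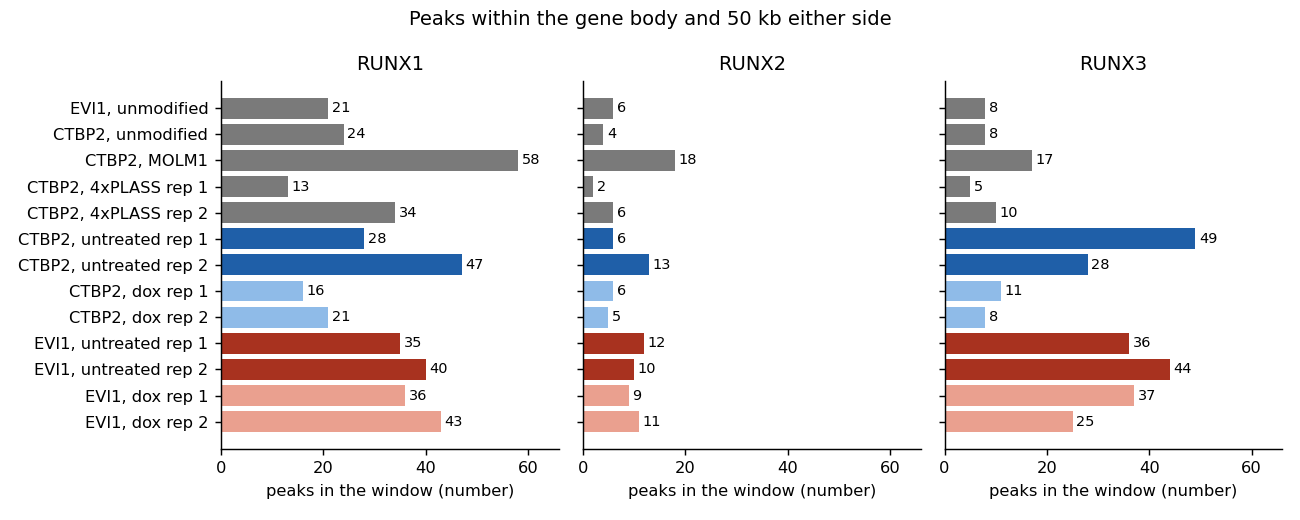
Number of peaks (x axis) in the window of each RUNX gene for each of the 13 lists (rows). Gray bars are lists of single groups or of the 4× PLASS control, dark bars untreated and light bars dox libraries of the inducible cells, blue for CTBP2 and red for EVI1. At RUNX3 the untreated CTBP2 lists hold 49 and 28 peaks and the dox lists 11 and 8.

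Most elements lay away from promoters. Of the 187 elements, 8 were at a promoter (summit within 1 kb of the start of a protein-coding transcript of the gene), 2 in an exon, 124 in an intron, 27 in the upstream flank and 26 in the downstream flank. Of the 95 RUNX1 elements, 43 lay within the span of the CCDS transcripts and most others upstream of P1 inside the long gene model. At RUNX3, 23 of 62 elements lay in the upstream flank and 14 in the downstream flank. A total of 80 elements were called in 1 list alone, 23 of them in MOLM1, while 10 of 187 were called in all 13 lists. In the genome 2.33% of elements were called in all 13. No genome share is given for the placements or for elements of 1 list, so those counts describe the windows alone.

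The 10 elements called in every list were 6 at RUNX1, 1 at RUNX2 and 3 at RUNX3. At RUNX1, 5 lay in introns of the CCDS transcripts, at 22.6, 28.7, 138, 141 and 184 kb from P1, and 1 lay 53.9 kb upstream of P1. The RUNX2 element lay in an intron, and the RUNX3 elements were the P1 promoter, an intron 12.5 kb from P1 and a position 26.9 kb beyond the 3′ end.

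**Figure D2:**
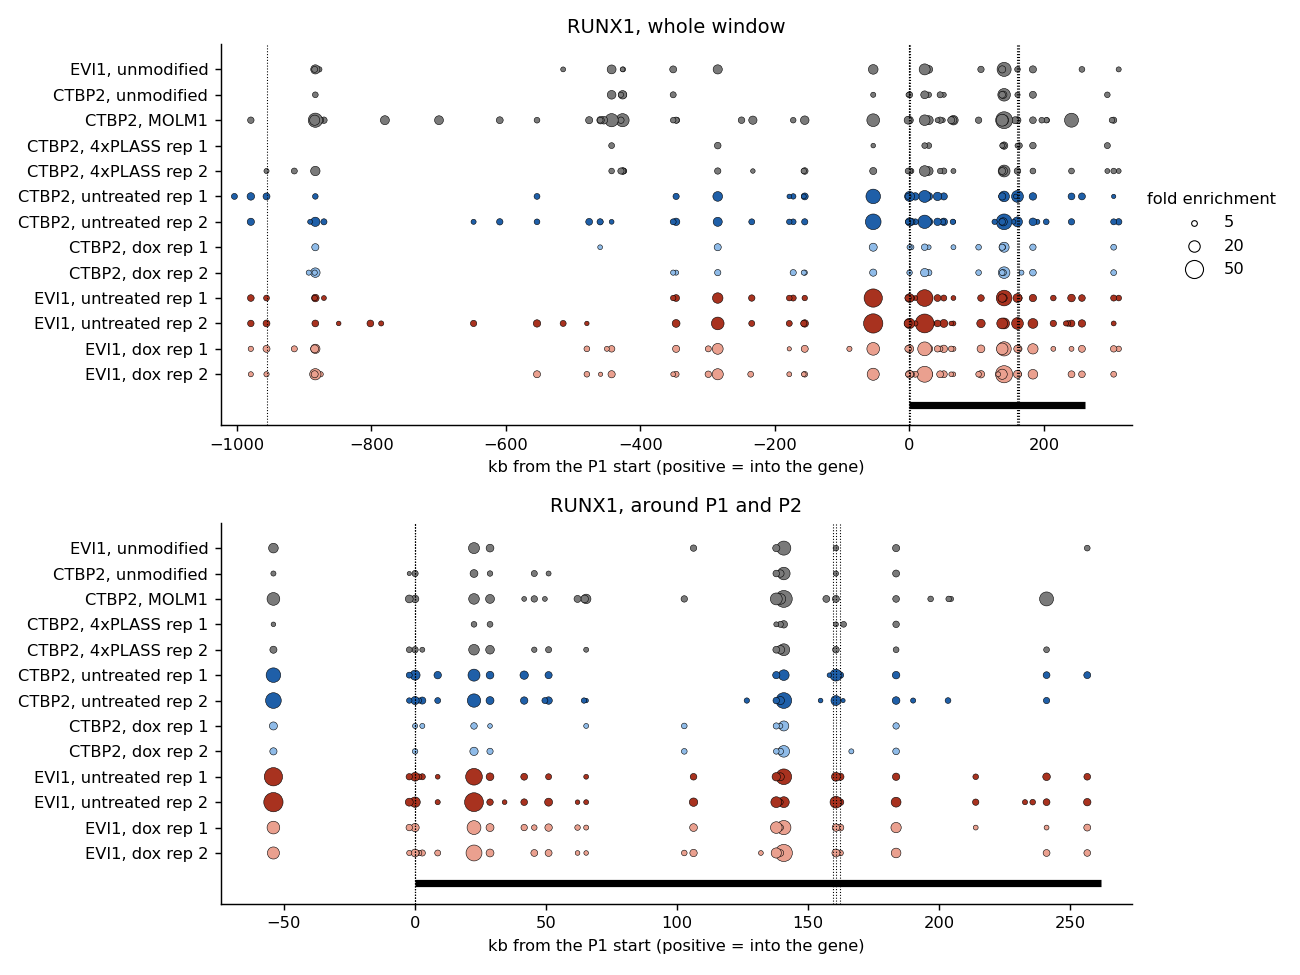
Peaks at RUNX1 by distance in kb from the P1 start (x axis, positive into the gene) in the 13 lists (rows), with the area of a circle following the fold enrichment of the strongest peak of the element. Dotted lines are starts of protein-coding transcripts, the black bar is the span of the CCDS transcripts, the upper panel is the whole window and the lower panel the part around P1 and P2. The large circles upstream of P1, where EVI1 reached 51.2 and 57.0 without dox, are smaller with dox, at 24.7 and 22.4.

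The RUNX1 element between P1 and P2 (chr21:36280150-36281472), 18.8 kb upstream of the nearest P2 start, had the highest RUNX1 fold enrichment in 10 of the 13 lists. In unmodified MUTZ3 it ranked 117th of 21505 EVI1 peaks with a fold enrichment of 30.3, and 61st of 16836 CTBP2 peaks with 24.3. In MOLM1 it ranked 64th of 64569 with 43.7. In the 4× PLASS cells it had 8.45 (rank 623 of 6688) and 21.6 (rank 275 of 31310). The element was thus among the strongest peaks of the unmodified MUTZ3 lists and of the MOLM1 list.

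In the inducible cells the replicates of this element stood far apart. CTBP2 had a fold enrichment of 17.4 (rank 3467) and 37.9 (rank 81) without dox, and 15.4 (rank 245) and 20.6 (rank 133) with dox. EVI1 had 37.7 (rank 286) and 18.1 (rank 5439) without dox, and 31.1 (rank 727) and 45.0 (rank 138) with dox. The groups overlapped for both proteins. The mean with dox was 65.1% of the untreated mean for CTBP2 and 136% for EVI1, with p = 0.667 for each (exact permutation, two-sided). The smallest p that 2 libraries a group allow is 0.333.

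The element in the intron 22.6 kb downstream of P1 (chr21:36398522-36399915) was among the 3 strongest RUNX1 elements in 9 of the 13 lists. An enhancer active in blood stem cells, known as eR1, is described in this intron, and whether the element covers it was not tested. CTBP2 had 22.1 and 27.4 without dox and 6.59 and 10.6 with it. EVI1 had 42.7 and 54.5 without dox and 29.4 and 38.9 with it. For both proteins each dox value was below each untreated value (exact permutation p = 0.333), and the dox mean was 34.7% of the untreated mean for CTBP2 and 70.3% for EVI1. High untreated replicate 1 values were among the reasons for naming this element, which favours lower dox values.

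The element 53.9 kb upstream of P1 (chr21:36475158-36475883) was the strongest RUNX1 element in 3 of the 4 untreated libraries of the inducible cells. CTBP2 had 32.5 (rank 377) and 37.7 (rank 85) without dox and 9.93 (rank 1254) and 7.97 (rank 3957) with it, so the dox mean was 25.5% of the untreated mean. EVI1 had 51.2 (rank 78) and 57.0 (rank 232) without dox and 24.7 (rank 1387) and 22.4 (rank 1252) with it, or 43.5%. Neither pair of groups overlapped (exact permutation p = 0.333 for each). The element was named in part for its high untreated replicate 1 values, a choice that favours lower dox values. In unmodified MUTZ3 the same element ranked 14211th of 16836 for CTBP2 with 4.05, and 1294th for EVI1 with 14.3. In the 4× PLASS cells CTBP2 had 3.25 (rank 6369 of 6688) and 7.73 (rank 5851 of 31310), and in MOLM1 24.9 (rank 1290 of 64569). The crosslink of the unmodified CTBP2 library differed from that of the inducible libraries by the labels. That of the 4× PLASS and MOLM1 libraries differed by the supplement alone. The part of the crosslink in these differences was not tested.

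The remaining RUNX1 elements of all lists were weaker. At 28.7 kb from P1, CTBP2 had 9.07 and 9.67 without dox and 3.39 and 6.05 with it, while EVI1 had 9.18 and 6.49 without dox and 9.69 and 9.50 with it. At 138 kb, CTBP2 had 8.05 and 6.64 and then 5.91 and 4.98, while EVI1 had 10.8 and 18.0 and then 20.8 and 15.9. At 184 kb, CTBP2 had 8.62 and 8.97 and then 6.30 and 6.93, while EVI1 had 8.30 and 14.9 and then 16.3 and 14.3. The CTBP2 fold enrichment was lower in both dox libraries than in both untreated libraries at each of these elements, and that of EVI1 was not. A lower CTBP2 value is also the background at sites called in both dox libraries. In the genome the dox mean lay below the untreated mean at 13196 of 14297 such CTBP2 sites. For EVI1 it did so at 21190 of 31593. By rank, the CTBP2 groups were separate at 28.7 kb alone (the top 25.4% and 15.5% of the untreated lists and 88.7% and 36.0% of the dox lists). They overlapped at 138 kb (31.3% and 35.0%, then 28.2% and 59.1%) and at 184 kb (27.9% and 18.5%, then 23.7% and 24.9%). By rank EVI1 stood higher in both dox lists at each of the 3 elements, for example in the top 7.15% and 8.05% at 184 kb after 28.3% and 11.0%.

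The RUNX1 promoters differed in the fate of their CTBP2 peak. At P1 (chr21:36421013-36421942), CTBP2 had 15.3 and 10.2 without dox and 4.01 and 4.64 with it. EVI1 there had 11.8 and 16.5 without dox and 10.4 and 9.38 with it. At P2 (chr21:36260177-36262951), CTBP2 had 21.5 (rank 1791) and 15.1 (rank 2829) without dox and no peak in either dox library, which made it the strongest RUNX1 CTBP2 site without one. EVI1 kept a peak within this element, with 12.1 and 21.2 without dox and 8.49 and 9.80 with it, but at different positions. The EVI1 summits of both untreated libraries and of dox replicate 1 lay within 1 kb of the P2 start at 36262087. There dox replicate 2 had 7.24. These CTBP2 summits and the dox replicate 2 summit of 9.80 lay within 1 kb of the P2 start at 36260987. At that start EVI1 had no summit without dox or in dox replicate 1. A CTBP2 peak at P2 was also called in unmodified MUTZ3 (4.2), in MOLM1 (7.38) and in the 4× PLASS cells (3.76 and 6.68). With the 4 CTBP2 lists reduced to their 23878 strongest peaks, P2 would still be called without dox by these ranks. The other RUNX1 promoter elements, 1 beside each of P1, P2 and the distal start, were called in 1, 5 and 6 lists with fold enrichments of 3.80 to 7.79. The summit window at P1 held the RUNX motif 3 times, and its sequence is not printed because it overlaps the first exon.

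At RUNX2 the only bound promoter was P2, and no list had a summit within 1 kb of a P1 start. At P2 (chr6:45389203-45390879), CTBP2 had 10.8 and 5.85 without dox and 4.76 and 5.70 with it, and EVI1 had 11.5 and 10.5 and then 8.39 and 7.12. The element was called in 12 lists, all but EVI1 in unmodified MUTZ3. The dox means were 62.8% of untreated for CTBP2 and 70.5% for EVI1, and the dox fold enrichments lay below the untreated ones for both (exact permutation p = 0.333). By rank the CTBP2 groups overlapped, at the top 17.9% and 44.9% without dox and 51.8% and 41.7% with it.

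The RUNX2 intron element (chr6:45463407-45464113), 73.4 kb downstream of the nearest P2 start, was the strongest peak of its locus in 11 of the 13 lists. It ranked 101st of the unmodified CTBP2 list with 21.1 and 46th of the 4× PLASS replicate 2 list with 31.6. CTBP2 had 15.6 (rank 4707) and 28.7 (rank 290) without dox, and 13.1 (rank 429) and 20.6 (rank 133) with it. EVI1 had 36.9 (rank 306) and 13.3 (rank 9648) without dox, and 18.0 (rank 3026) and 19.0 (rank 1927) with it. As at RUNX1 between P1 and P2, CTBP2 untreated replicate 1 and EVI1 untreated replicate 2 were the low ones, and the groups overlapped (exact permutation p = 0.667 for CTBP2 and 1.0 for EVI1). The element 13.2 kb beyond the RUNX2 3′ end had 10.9 and 5.83 for untreated CTBP2 and 6.20 and 5.69 with dox, and 14.3 and 20.8 for EVI1 without dox and 20.2 and 14.8 with it.

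**Figure D3:**
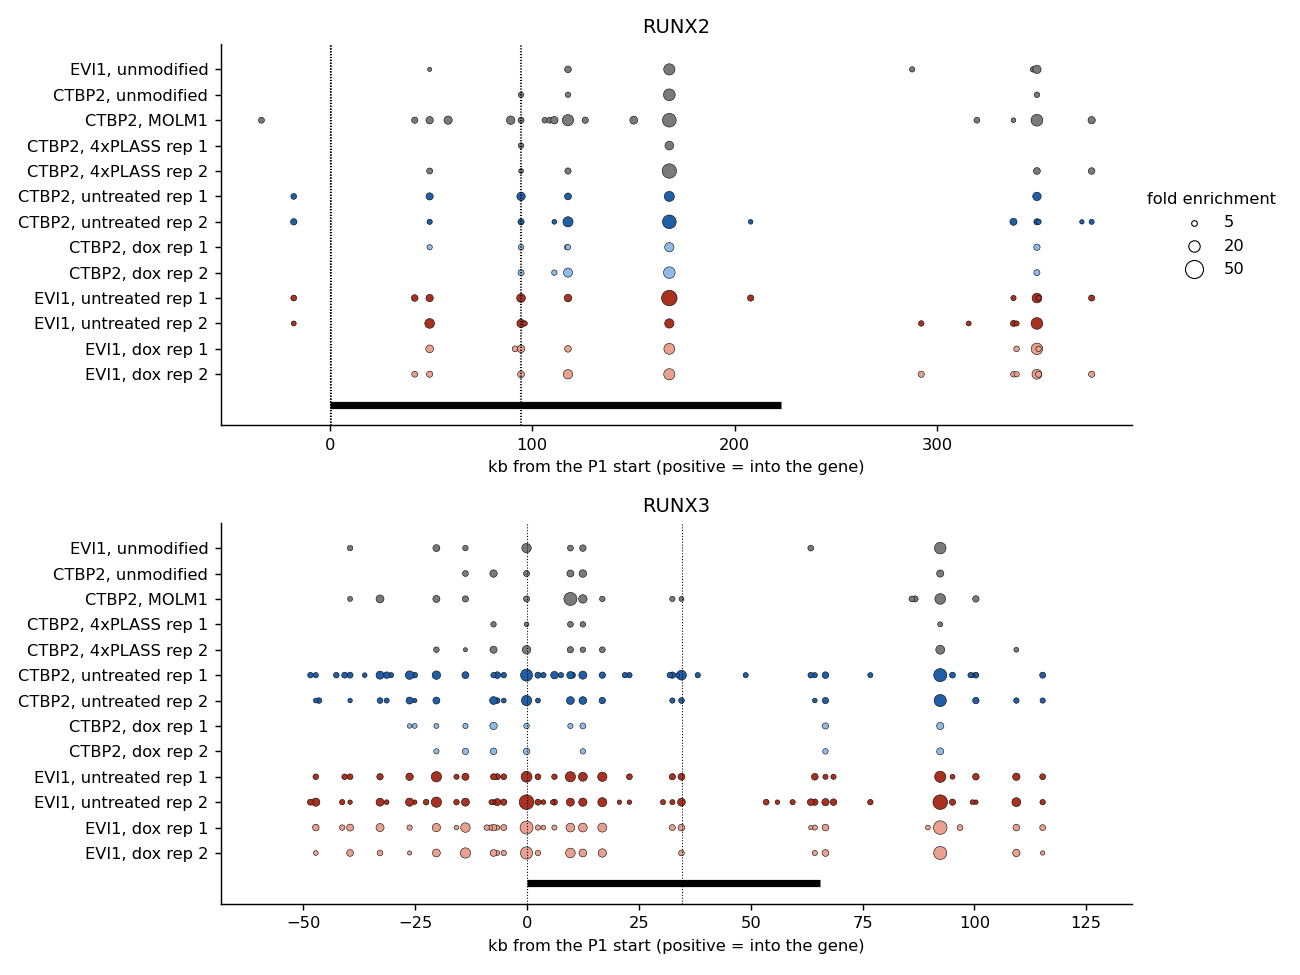
Peaks at RUNX2 (upper panel) and RUNX3 (lower panel) by distance in kb from the P1 start (x axis, positive into the gene) in the 13 lists (rows), drawn as for RUNX1. RUNX2 has few elements and none at P1, while RUNX3 has 62 elements in 166 kb of window and CTBP2 peaks in far fewer of them with dox.

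At RUNX3 the element with the highest fold enrichment in 8 of the 13 lists lay in the 3′ flank, 26.9 kb beyond the end of the gene (chr1:25196837-25199702). CTBP2 had 26.2 (rank 888) and 22.7 (rank 715) without dox, and 8.03 (rank 2625) and 7.66 (rank 4467) with it. EVI1 had 19.1 and 32.6 without dox and 28.1 and 26.4 with it. The CTBP2 dox mean was 32.1% of the untreated mean with no overlap of the groups (exact permutation p = 0.333), and the EVI1 dox mean was 105% of untreated with overlap (p = 1.0, exact permutation). Since this element was named in part by untreated replicate 1 values, lower dox values were favoured by the choice. By rank EVI1 was in the top 4.59% and 1.94% without dox and 1.82% and 1.71% with it. The difference between the proteins was not tested at single elements.

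The RUNX3 P1 promoter (chr1:25291193-25293529) gave the same order. CTBP2 had 22.1 and 16.3 without dox and 4.72 and 6.70 with it, or 29.7% of the untreated mean. EVI1 had 18.1 and 33.1 without dox and 25.8 and 22.8 with it, or 94.9%. At the P2 promoter (chr1:25254827-25257482), the peaks with a summit within 1 kb of the start had a CTBP2 fold enrichment of 14.8 (rank 5431) and 4.07 (rank 45540) without dox. No dox CTBP2 peak lay in the element, while EVI1 had 7.28 and 9.53 without dox and 6.68 and 3.44 with it. Unlike RUNX1 P2, this site drops out of untreated replicate 2 when the lists are made equal in size. The intron element 12.5 kb from P1 had 9.98 and 9.18 for untreated CTBP2 and 5.39 and 4.40 with dox, and EVI1 had 12.2 and 10.6 and then 11.8 and 9.36. An upstream element 20.3 kb from P1 was the third strongest EVI1 site, with 16.3 and 16.1 without dox and 10.4 and 9.46 with it.

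**Figure D4:**
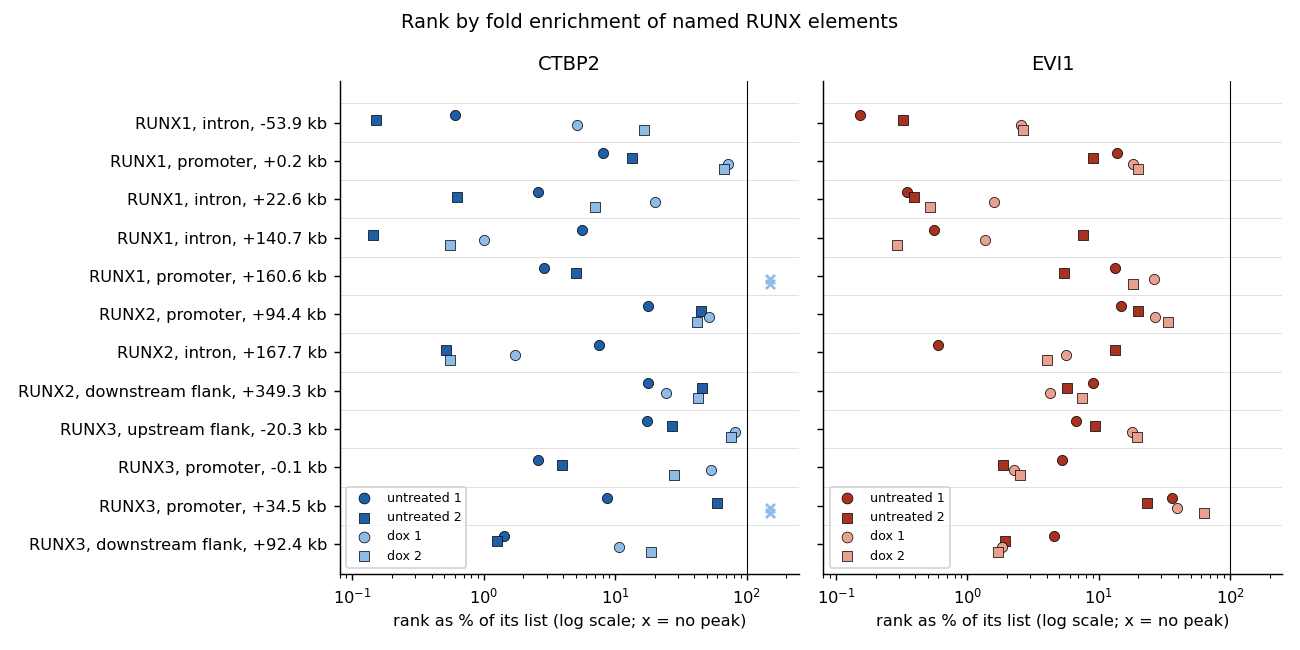
Rank of named RUNX elements in the CTBP2 (left) and EVI1 (right) lists of the inducible cells, as a percentage of the list (x axis, log scale, left is stronger). The label gives the gene, the place and the distance from the P1 start. Circles are replicate 1 and squares replicate 2, dark untreated and light dox, and a cross marks a list without a peak. CTBP2 has crosses at the P2 promoters of RUNX1 and RUNX3, and the RUNX1 element between P1 and P2 (141 kb from P1) and the RUNX2 intron element stay within the top 1.74% of both dox CTBP2 lists.

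The study asked whether 4× PLDLS displaces CTBP2 from chromatin, and the number of peaks at the RUNX genes was compared on that question. The 3 windows together held 83 and 88 CTBP2 peaks without dox and 33 and 34 with it, a difference of -52.0 (85.5 ± 3.54 against 33.5 ± 0.707, SD, n = 2, exact permutation p = 0.333). At RUNX1 dox gave 16 and 21 peaks, at RUNX2 6 and 5, and at RUNX3 11 and 8. The dox and untreated libraries did not overlap at RUNX1 and RUNX3, and they overlapped at RUNX2. Among all gene windows 65.9% had fewer CTBP2 peaks in both dox than in both untreated libraries, so 2 of 3 is near the background. The RUNX windows held 0.133% and 0.156% of all untreated CTBP2 peaks and 0.134% and 0.142% of the dox peaks. Cut to the top 23878 peaks of each CTBP2 list, the windows held 31 and 36 peaks without dox and 33 and 34 with it, a difference of 0. Equal lengths remove a loss over the whole genome by construction, so this cut cannot show whether CTBP2 was lost. It shows that the windows held a similar part of the strongest peaks in each list. The study itself reported from read counts a global loss of CTBP2 binding with 4× PLDLS.

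For EVI1 the windows held 83 and 94 peaks without dox and 82 and 79 with it, a difference of -8.0 (88.5 ± 7.78 against 80.5 ± 2.12, SD, n = 2, exact permutation p = 0.333). At RUNX1 the numbers were 36 and 43 with dox, at RUNX2 9 and 11, and at RUNX3 37 and 25. The groups overlapped at each gene, and among all gene windows 16.0% had fewer EVI1 peaks in both dox libraries. With lists of 47599 peaks each, a cut that likewise removes changes in list length, the difference turned to 4.5 in the other direction.

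For the fate of single positions, overlapping peaks of the 2 untreated libraries of a protein were joined, and a joined interval was taken as a site if both libraries contributed to it. The windows held 50 CTBP2 sites and 60 EVI1 sites. Of the CTBP2 sites, 24 overlapped a peak of dox replicate 1 (48.0%) and 23 a peak of replicate 2 (46.0%), a mean of 47.0% ± 1.41 (SD, n = 2), beside 50.8% and 46.5% of the 37227 sites in the genome. Both dox libraries had a peak at 20 of the 50 sites (40.0%, 95% Wilson interval 27.6 to 53.8), and neither at 23 (46.0%, 33.0 to 59.6). In the genome the shares were 38.4% and 41.0%, so the RUNX windows lay near the background. Without CTBP2 untreated replicate 2, the mean share called again was 30.1%.

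The genes stood in the order RUNX2, RUNX1, RUNX3 by the share of CTBP2 sites called again with dox, except with lists of equal size. RUNX1 and RUNX3 were nearly equal without CTBP2 untreated replicate 1. At RUNX1 10 and 13 of 22 sites were called again (52.3% ± 9.64, SD, n = 2), with 9 in neither library. At RUNX2 the numbers were 5 and 4 of 6 (75.0% ± 11.8, SD, n = 2), with 1 in neither. At RUNX3 they were 9 and 6 of 22 (34.1% ± 9.64, SD, n = 2), with 13 in neither. The values of RUNX1 and RUNX3 did not overlap between libraries, but the Wilson intervals of the share without any dox peak did, at 23.3 to 61.3% and 38.7 to 76.7%. With lists of equal size the shares were 66.7% at RUNX1, 100.0% at RUNX2 and 83.3% at RUNX3, so RUNX3 stood above RUNX1. That cut left 16 and 21 untreated CTBP2 peaks at RUNX1, 5 and 4 at RUNX2, and 10 and 11 at RUNX3. The shares and their order thus rest on few sites. Without CTBP2 untreated replicate 1 the shares were 30.9% at RUNX1, 42.3% at RUNX2 and 30.4% at RUNX3. Without untreated replicate 2 they were 42.9%, 75.0% and 17.3%.

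For EVI1 the shares called again were higher at RUNX1 and RUNX3. Of the 60 EVI1 sites, 52 were called again in the first dox library and 49 in the second (84.2% ± 3.54, SD, n = 2), 47 in both and 6 in neither, which is 78.3% and 10.0% beside 78.1% and 9.01% in the genome. The shares were 90.7% ± 2.62 at RUNX1, 75.0% ± 11.8 at RUNX2 and 79.6% ± 7.86 at RUNX3 (SD, n = 2). The CTBP2 share was 37.2 percentage points below the EVI1 share over the 3 genes (exact permutation p = 0.333), 38.5 points below at RUNX1 and 45.5 below at RUNX3, and equal at RUNX2. Over the genome the difference was 35.9 points. With lists of equal size the CTBP2 share minus the EVI1 share was -12.0 points over the 3 genes, -22.9 at RUNX1 and 0.0 at RUNX3, so the RUNX3 difference was not seen there. Equal lengths take out a loss over the genome beforehand, so these values cannot show whether CTBP2 was lost. Without EVI1 untreated replicate 1 the share difference was -14.2 points over the 3 genes, -19.0 at RUNX1 and -18.2 at RUNX3, where the EVI1 share was 52.3%. At RUNX2 it ran from -40.0 (fold enrichment of at least 5) to 41.7 (summits within 200 bp).

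**Figure D5:**
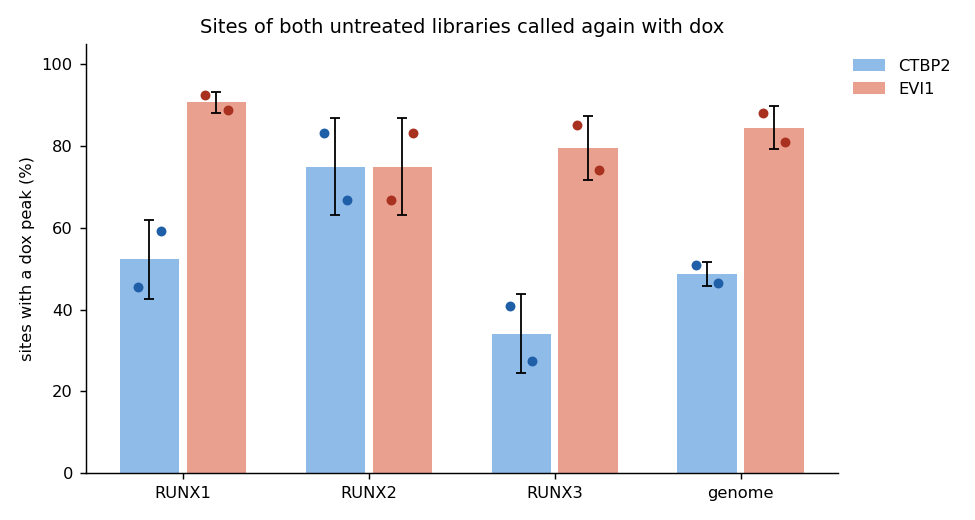
Share of sites of both untreated libraries that overlap a dox peak (y axis, %) for CTBP2 (blue) and EVI1 (red) at each RUNX gene and over the genome. Bars are means, points the 2 dox libraries and error bars the SD. With the lists as deposited CTBP2 lies below EVI1 at RUNX1 and RUNX3, and the values overlap at RUNX2, which has 6 sites of each protein.

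EVI1 was present at most CTBP2 sites. Of the 50 CTBP2 sites, 44 overlapped an EVI1 site (88.0%, 95% Wilson interval 76.2 to 94.4), beside 82.5% in the genome. The counts were 19 of 22 at RUNX1, 5 of 6 at RUNX2 and 20 of 22 at RUNX3. Of these 44, 20 had no CTBP2 peak with dox, and 14 of the 20 had an EVI1 peak in both dox libraries (70.0%, beside 70.5% in the genome). With all CTBP2 sites of the genome split into 5 groups of equal size by fold enrichment in untreated replicate 1, 8 of the 10 RUNX sites in the strongest group had a peak in both dox libraries and 3 of the 12 in the weakest had, beside 81.4% and 14.7% in the genome. At the sites called in both dox libraries, the CTBP2 dox mean was a median of 58.1% of the untreated mean at RUNX1, 73.1% at RUNX2 and 47.1% at RUNX3, beside 54.3% in the genome. For EVI1 the medians were 92.8%, 72.2% and 88.9%, beside 84.2%.

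Elements called in both dox libraries and in neither untreated library were counted next. CTBP2 had 1 of 187 such elements, beside 0.114% of the elements of the genome, in the intron 103 kb from P1, with 4.94 and 4.98. EVI1 had 3 of 187, beside 1.21% in the genome, also at RUNX1, which holds 95 of the 187, with fold enrichments of 4.75 to 7.97. One of these, 443 kb upstream of P1 (chr21:36864290-36864683), had 12.1 for EVI1 and 11.5 for CTBP2 in unmodified MUTZ3 and 26.7 in MOLM1, but in the untreated inducible cells only CTBP2 replicate 2 had a peak there, with 3.56. At RUNX2 the CTBP2 site without a dox peak, 17.8 kb upstream of P1 inside SUPT3H, had 5.10 and 6.29, and EVI1 there had 5.28 and 3.85 without dox and no dox peak.

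The lists of single groups were compared by the elements they share. In unmodified MUTZ3, 33 elements had an EVI1 peak and 29 a CTBP2 peak, and 20 had both, which is 20 of 33 and 20 of 29, beside 47.9% and 60.5% in the genome. Of the 29 CTBP2 elements, 26 also had a MOLM1 CTBP2 peak (76.7% in the genome), and MOLM1 had 81 in all. Peaks numbered 21 for EVI1, 24 for CTBP2 and 58 for MOLM1 at RUNX1, 6, 4 and 18 at RUNX2, and 8, 8 and 17 at RUNX3. Both 4× PLASS libraries had a peak at 18 elements, of which 15 had CTBP2 in both untreated inducible libraries (86.2% in the genome). The 4× PLASS libraries held 20 and 50 peaks in the windows, from lists of 6688 and 31310.

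The partners of RUNX proteins gave the same windows for comparison. The list held CBFB, the corepressors CBFA2T2, CBFA2T3, TLE1, TLE3 and TLE4, the acetyltransferases EP300 and CREBBP, and SIN3A and HDAC1 of histone deacetylase complexes. All 10 had a CTBP2 site (85.9% of all genes) and 9 a CTBP2 site called in both dox libraries (68.0% of all genes). All 10 had an EVI1 site (87.0% of all genes) and an EVI1 site called in both dox libraries (84.7% of all genes). The partner windows held more sites, a median of 7.5 for CTBP2 and 8.0 for EVI1 against 3.0 and 4.0 for all genes. A window with more sites more easily holds at least 1. By site, both dox libraries had a peak at 32 of 80 CTBP2 sites (38.4% in the genome) and 65 of 88 EVI1 sites (78.1% in the genome). CBFA2T2 was the exception for CTBP2, with 16 and 14 peaks without dox, 3 and 1 with it and 0 of 10 sites in both dox libraries, while 9 of its 11 EVI1 sites were. CBFB had 14 and 9 CTBP2 peaks without dox and 4 and 6 with it, with 4 of 6 sites in both dox libraries. CTBP2 peaks were fewer in both dox libraries at 9 of 10 partners (65.9% of all genes) and EVI1 peaks at 2 of 10 (16.0% of all genes). The shares of all genes include windows with few peaks and are not matched to the larger number at the partners. They therefore do not show a stronger loss at the partners.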

How the data were processed

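Of 31 samples, the 13 with peak lists were used. The authors aligned reads to hg19 with Bowtie (1.1.1 in the submitters' processing notes) and called peaks per library with MACS2 (2.1.2) against a matched input, without pooling replicates. The deposited lists hold a score (not used here), the fold enrichment at the summit (a ratio), and −log10 p and −log10 q values, the last used only as a filter.

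Peaks overlapping the gene body (GENCODE release 44 lifted to GRCh37) plus 50 kb were taken, and overlaps needed 1 bp. Peaks of an element were ranked by fold enrichment within each list. Shares have 95% Wilson intervals, which cover counting error alone, and libraries were compared by exact two-sided permutation tests. The members, gene lists and site rule were chosen with earlier results of these data known. Named were promoter sites, the 3 strongest CTBP2 and EVI1 sites per gene by untreated replicate 1, the strongest CTBP2 site without a dox peak, elements of all lists, elements of both dox and no untreated library, and neighbours in the order of peak number. Naming by untreated fold enrichment favours lower dox values at those sites. Motifs were counted on the sequences present in the GRCh37 primary assembly. The overlap procedure was tested on simulated lists. Python 3.11.15, numpy 2.4.6, pandas 2.3.3, scipy 1.17.1 and pysam 0.24.0 were used.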

Additional observations from a re-analysis of the deposited data

How the results depend on the processing

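The CTBP2 peak difference of -52.0 at the RUNX genes stayed below 0 under every alternative but lists of equal size, where it was 0. That setting removes any change in list length by construction. With a library left out the CTBP2 difference lay between -54.5 and -49.5. The EVI1 difference of -8.0 ranged from -13.5 to -2.5 with a library left out and turned to 4.5 with lists of equal size. At single genes, the EVI1 difference turned at RUNX1 to -0.5 (fold enrichment of at least 5, or without untreated replicate 1) and -1.5 (without dox replicate 2), ranging from -1.5 to 5.5 with a library left out, and at RUNX2 to 0.5 (−log10 q of at least 5), 1.5 (fold enrichment of at least 5) and 1.0 (lists of equal size), while CTBP2 at RUNX2 turned to 1.0 (lists of equal size). The CTBP2 share called again (47.0%) was 34.8% with a fold enrichment of at least 5, 75.0% with lists of equal size, 51.6% with no flank, 44.1% with 100 kb flanks, 45.0% with the CCDS span and 24.8% with sites of either untreated library, and with a library left out it ranged from 30.1% (without untreated replicate 2) to 48.0%. The EVI1 share (84.2%) was 88.9% with −log10 q of at least 5, 77.5% with a fold enrichment of at least 5, 88.2% with no flank, 78.2% with summits within 200 bp and 59.8% with sites of either library, and ranged from 61.2% to 86.7% with a library left out. The CTBP2 share minus the EVI1 share ranged from -54.0 to -14.2 points with a library left out. The share of CTBP2 sites with an EVI1 site (88.0%) was 95% with lists of equal size, 71.4% with summits within 200 bp and 74.8% with sites of either library, and ranged from 64.8% to 96.0% with a library left out. Sites of 1 library, or of either, include peaks that the other replicate lacks. The cause of the other shifts was not tested.

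Replicate numbers are shared, but the labels do not pair them. With the replicate block, libraries of the same number compared, the peak differences were -52.0 and -8.0, and the shares called again 31.0% for CTBP2 and 68.9% for EVI1, with sites taken from 1 untreated library each. Depth is not in the lists, so a list's length and its depth cannot be told apart.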

Other observations

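The untreated replicates did not order the RUNX elements alike. At the RUNX1 element between P1 and P2 and at the RUNX2 intron element, CTBP2 untreated replicate 1 had 17.4 and 15.6 and replicate 2 had 37.9 and 28.7, while EVI1 untreated replicate 1 had 37.7 and 36.9 and replicate 2 had 18.1 and 13.3. Over the 30118 intervals of the genome called in all 4 untreated libraries, Spearman's rho of fold enrichment was 0.635 between the CTBP2 replicates and 0.76 between the EVI1 replicates. CTBP2 replicate 1 had 0.695 with EVI1 replicate 2 and 0.58 with EVI1 replicate 1, and CTBP2 replicate 2 had 0.64 with EVI1 replicate 1 and 0.545 with EVI1 replicate 2. These are descriptions across intervals that share libraries and input. At RUNX3, CTBP2 untreated replicate 1 had 49 peaks to 28 in replicate 2, whereas at RUNX1 it had 28 to 47.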
